A study of Mus musculus with 17 samples.

Results

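The genes described here encode the proteins that make the programmed DNA double-strand breaks of meiosis. They were chosen by name, with no measured value in the rule, and were found by NCBI Gene ID in the deposited gene table, where they are 10 of 24594 genes. Prdm9 and Zcwpw1 act in the choice and reading of break sites, Spo11 and Gm960 (also called Top6bl) form the catalytic core, Iho1, Mei4, Rec114, Ankrd31 and Mei1 are accessory genes, and Hormad1 encodes a protein of the chromosome axis. Of the 10, 9 passed the filter for testing, which asked for 1 RPKM or more in at least 3 of 15 libraries and left 13260 genes. Mei4 did not pass, since only 1 library reached 1 RPKM, and it is described by its reads. RPKM divides the reads of a gene by its exon length in kilobases and by the library total in M (mega) reads, so levels of different genes can be set side by side.

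RNA was sequenced from male germ cells sorted by flow cytometry from digested mouse testes. There were 2 groups of spermatocytes, those at leptotene/zygotene (LZ) and those at pachytene/diplotene (PD). The 3 groups of spermatids were round (RS), early elongating (EES) and late elongating (LES), and each of these 5 stages had 3 libraries sorted with Hoechst and SYTO 16. A further pair of single libraries was sorted with Hoechst alone: round spermatids whose title gives juvenile mice of 23 days post partum (RS23), and elongating spermatids whose title gives a Prm1-EGFP reporter (PrmES). All 17 samples carry the labels C57BL/6JRj, male, wild type and an age of 3 months, with no treatment. That age differs from the RS23 title and that genotype from the PrmES title, and the titles were followed. The labels do not say whether the 3 libraries of a stage came from separate animals, so p-values measure only the spread between these libraries, which may be technical.

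Early in meiotic prophase, PRDM9 binds DNA through its zinc fingers and methylates histone H3 beside its binding sites, and ZCWPW1 reads these marks. SPO11, working with TOP6BL as a complex related to a topoisomerase, cuts the DNA. IHO1, REC114, MEI4, MEI1 and ANKRD31 act in the formation of breaks along the axis on which HORMAD1 sits. Breaks form during leptotene and zygotene, are repaired during pachytene, and in male mice form last in the short region shared by the X and Y chromosomes.

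The 15 stage libraries held 90.6 to 137.8 M reads, by totals recovered from the values. Reads in the gene table came to 48.4% to 87.7% of these totals. Dmc1, a recombinase of early prophase, averaged 61.6 ± 14.4 RPKM in LZ (SD, n = 3) and at most 2.02 RPKM in the other stages, and Tnp1, which packs spermatid chromatin, averaged 27735 RPKM in EES and 30088 RPKM in LES. A pair of libraries stood apart from the others of their stage. LZ replicate 3 had Spearman correlations over genes of 0.937 and 0.948 with the other LZ libraries, which reached 0.99 with each other, and its summed RPKM of 6 pachytene/diplotene markers was 629, against 122 and 111 in LZ replicates 1 and 2. EES replicate 2 had correlations of 0.871 and 0.921 with the other EES libraries, which reached 0.979 with each other, and its summed RPKM of 6 round spermatid markers was 680, against 113 and 168 in EES replicates 1 and 3. Other cell types were also detected in LZ: 10 Sertoli cell markers summed to 1.29 to 1.44 RPKM in PD (0 of 10 at a mean of 1 RPKM, with Rhox8 at 0 reads), against 65.3 to 117 RPKM in LZ (6 of 10 at 1 RPKM), and 10 spermatogonial markers summed to 8.43 to 11.0 RPKM in PD, against 65.6 to 80.7 RPKM in LZ (7 of 10 at 1 RPKM). Elongating spermatid markers were higher in LZ than in PD as well, with 6 of them summing to 64.7 to 255 RPKM in PD, against 775 to 1292 RPKM in LZ, and Tnp1 averaged 38.9 RPKM in PD, against 268 RPKM in LZ. Sertoli cell markers were also present later, at 6.90 to 22.5 RPKM in EES and 13.2 to 48.9 RPKM in LES (5 of 10 at 1 RPKM in each). They summed to 2.80 to 3.23 RPKM in RS and to 62.4 RPKM in PrmES, and LES replicate 3 had the highest LES sum. The part of these cells or RNAs in the LZ, EES, LES and PrmES levels below was not tested.

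In LZ the RNA of every gene of the machinery was detected, over a range from 165 ± 21.4 RPKM for Hormad1 to 0.858 ± 0.207 RPKM for Mei4 (mean ± SD, n = 3). The order of mean levels in LZ was Hormad1, Zcwpw1, Ankrd31, Spo11, Iho1, Prdm9, Gm960, Mei1, Rec114 and Mei4. Libraries of neighbours in this order overlapped for Iho1 with Prdm9, Prdm9 with Gm960 and Gm960 with Mei1, and were separate for the other 6 neighbouring pairs. The Zcwpw1 level is per kilobase of 2541 exon bases, where the GENCODE M21 exons sum to 5697 bases, so its place in the order depends on the gene model; for Gm960 these lengths are 3555 and 3703 bases. LZ replicate 2 was the lowest LZ library for 8 of the 10 genes, all but Rec114 and Mei4, and was also the library with the smallest share of reads in the gene table (48.4%). By LES the order was led by Ankrd31 at 8.75 ± 1.33 RPKM, and no other member averaged above 2.72 RPKM there.

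**Figure D1:**
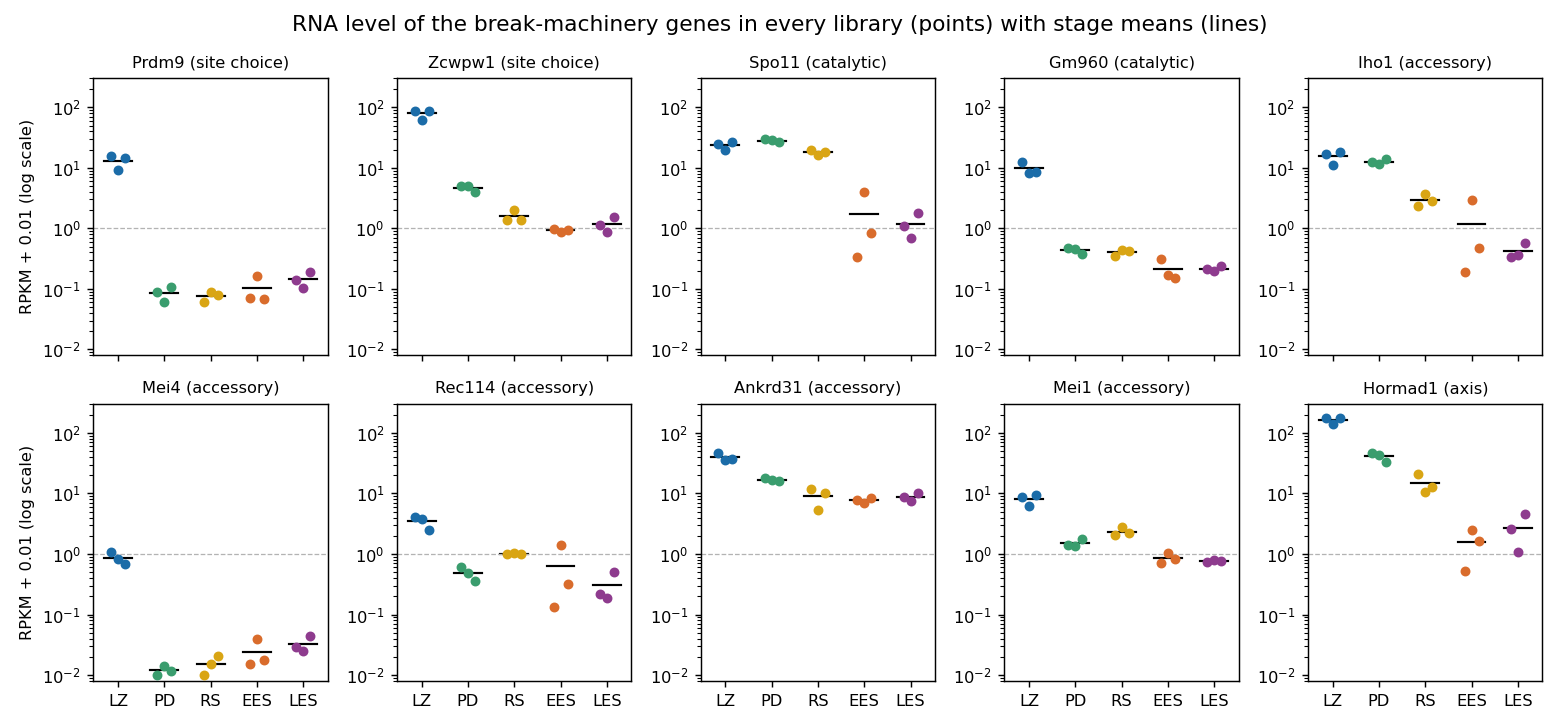
RNA level of each of the 10 genes in the 15 stage libraries, as RPKM plus 0.01 on a log axis, with 3 points a stage and a line at the stage mean; the dashed line marks 1. Prdm9, Zcwpw1, Gm960 and Mei4 had PD means of at most 5.81% of LZ, Spo11 and Iho1 had PD means of 28.3 and 12.5 RPKM, and Ankrd31 remained between 5.36 and 11.9 RPKM in every spermatid library.

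The comparison of PD with LZ asks whether RNA of these genes was still present after the stages in which breaks form. Of the 9 tested genes 7 fell in PD relative to LZ, by 1.21 to 7.25 on the log2 scale, while Spo11 and Iho1 did not pass the test. Among all tested genes 35.8% fell and 25.5% rose (61.2% in all). Prdm9 and Gm960 reached 1 RPKM in the 3 LZ libraries alone, so they passed the filter only through the stage where they are high and had to differ. The count of 7 and the median over the 9 genes are therefore descriptions. None of the 9 rose in limma, none was higher at an unadjusted p under 0.05, and none rose in limma-voom. Over all 10 genes, every PD library lay below every LZ library for 8 and above it for 1, with Iho1 overlapping; the shares of tested genes were 46.3% for below and 34.8% for above. The median log2 fold change was -2.42 over the 9 genes and -0.36 over all tested genes. The 7 falls were called in each of the 15 fits that left out 1 library, and also without both LZ replicate 3 and EES replicate 2. Under median centring of the libraries and under limma-voom on recovered reads the call of Ankrd31 was lost, which left 6. Those scalings called falls for 3946 and 4260 of all tested genes. These are bulk values, in which fewer cells of a type and less RNA per cell cannot be told apart.

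**Figure D2:**
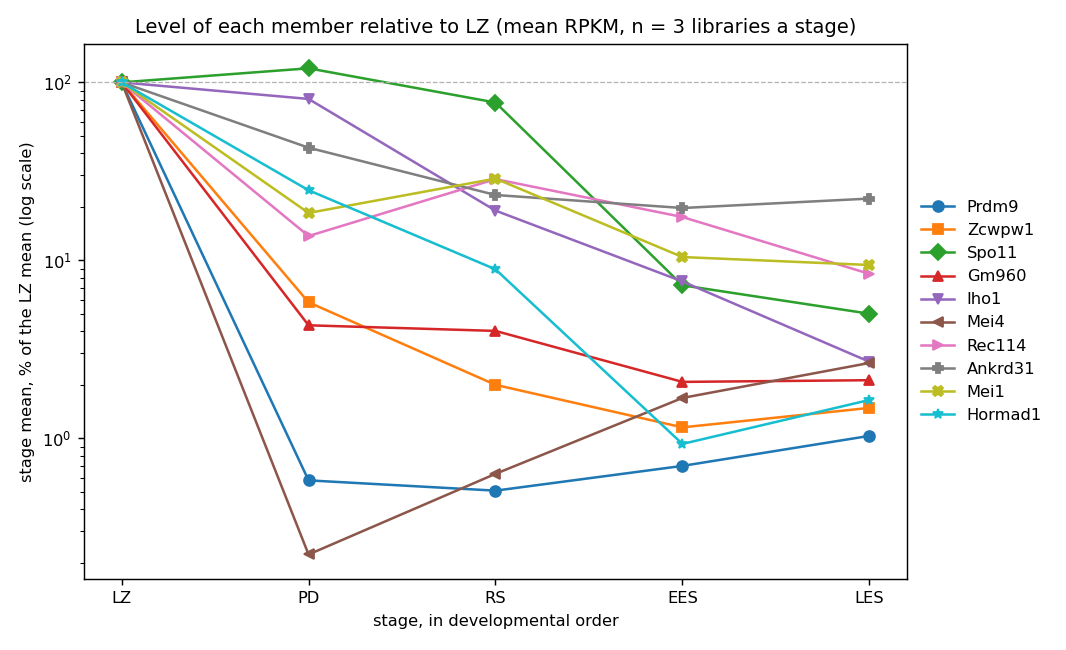
Mean RPKM of each gene in each stage (n = 3 libraries) as a percentage of its LZ mean, on a log axis, with stages in developmental order. In PD the genes spread from 0.223% (Mei4) to 120.0% (Spo11) of LZ, and in LES from 1.03% (Prdm9) to 22.2% (Ankrd31).

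Among the genes of site choice, Prdm9 had the largest fall of the 9 genes at this step. Prdm9 (NCBI Gene 213389) encodes the histone methyltransferase that marks break sites and lies on the minus strand at chr17:15543072-15564374, in the RefSeq coordinates of GRCm38.p6 used for all genes here. Prdm9 measured 15.8, 9.24 and 14.4 RPKM in the LZ libraries, 0.0801, 0.0512 and 0.0980 in PD, 0.0516, 0.0791 and 0.0701 in RS, 0.0615, 0.156 and 0.0594 in EES, and 0.131, 0.0955 and 0.181 in LES. Every LZ library stood above every later library, and stages next to each other in the order of means overlapped after LZ. The log2 fold change of Prdm9 was -7.25 ± 0.40 in PD relative to LZ (SE, limma adjusted p = 1.02e-08), a level 152-fold lower on the scale of RPKM plus 0.01. Since Prdm9 passed the filter only through LZ, this p-value is a description. The PD level rests on 27 to 58 reads a library.

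Zcwpw1 (NCBI Gene 381678, chr5:137787157-137822621, plus strand) encodes a reader of the histone marks that PRDM9 leaves. Zcwpw1 measured 87.7, 62.8 and 88.1 RPKM in LZ, 4.98, 4.95 and 3.94 in PD, 1.36, 2.04 and 1.37 in RS, 0.956, 0.877 and 0.919 in EES, and 1.12, 0.874 and 1.54 in LES. The libraries of LZ, PD and RS did not overlap, and those of RS, EES and LES lay within 0.874 to 2.04 RPKM. Zcwpw1 fell in PD relative to LZ (log2 fold change -4.09 ± 0.25, limma adjusted p = 2.62e-08) and fell again in RS relative to PD (-1.55 ± 0.25, adjusted p = 0.000215). At a level 5.81% of LZ it was still at 4.63 ± 0.594 RPKM in PD (SD, n = 3), against 0.0764 ± 0.0236 RPKM for Prdm9, which stood at 0.581% of its LZ level.

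The catalytic core split at the step to PD: Gm960 fell and Spo11 did not pass the test. Spo11 (NCBI Gene 26972, chr2:172977379-172993576, plus strand) encodes the protein that cuts DNA and stays joined to the cut ends. Spo11 measured 24.8, 19.5 and 26.4 RPKM in LZ, 29.6, 28.6 and 26.7 in PD, 19.9, 16.4 and 18.2 in RS, 0.327, 3.97 and 0.829 in EES, and 1.08, 0.671 and 1.79 in LES. Spo11 was the only one of the 10 whose 3 PD libraries all lay above the 3 LZ libraries, but the ranges nearly met, at 26.7 RPKM in PD replicate 3 and 26.4 RPKM in LZ replicate 3. The log2 fold change in PD relative to LZ was 0.27 ± 0.64 (limma adjusted p = 0.721), and -0.69 under quantile normalization. The stage mean was 28.3 ± 1.47 RPKM in PD, against 23.6 ± 3.64 RPKM in LZ (SD, n = 3 each).

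Gm960 (NCBI Gene 381196, chr19:4625734-4698713, minus strand) encodes TOP6BL, the partner of SPO11 that resembles the B subunit of a topoisomerase. Gm960 measured 12.4, 8.18 and 8.68 RPKM in LZ, 0.460, 0.441 and 0.363 in PD, 0.339, 0.422 and 0.414 in RS, 0.301, 0.163 and 0.144 in EES, and 0.206, 0.188 and 0.227 in LES. The LZ libraries stood apart from all later ones, and PD overlapped RS. Gm960 fell in PD relative to LZ, with a log2 fold change of -4.48 ± 0.29 (limma adjusted p = 3.88e-08). Like Prdm9, Gm960 passed the filter only through LZ, so this p-value is a description. The ratio of Spo11 to Gm960 RPKM was 64.4, 64.7 and 73.6 in the PD libraries, against 2.00, 2.38 and 3.05 in the LZ libraries. In RS it was between 38.9 and 58.7, so the RNA of the cutting subunit exceeded that of its partner by more in PD and RS than in LZ.

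**Figure D3:**
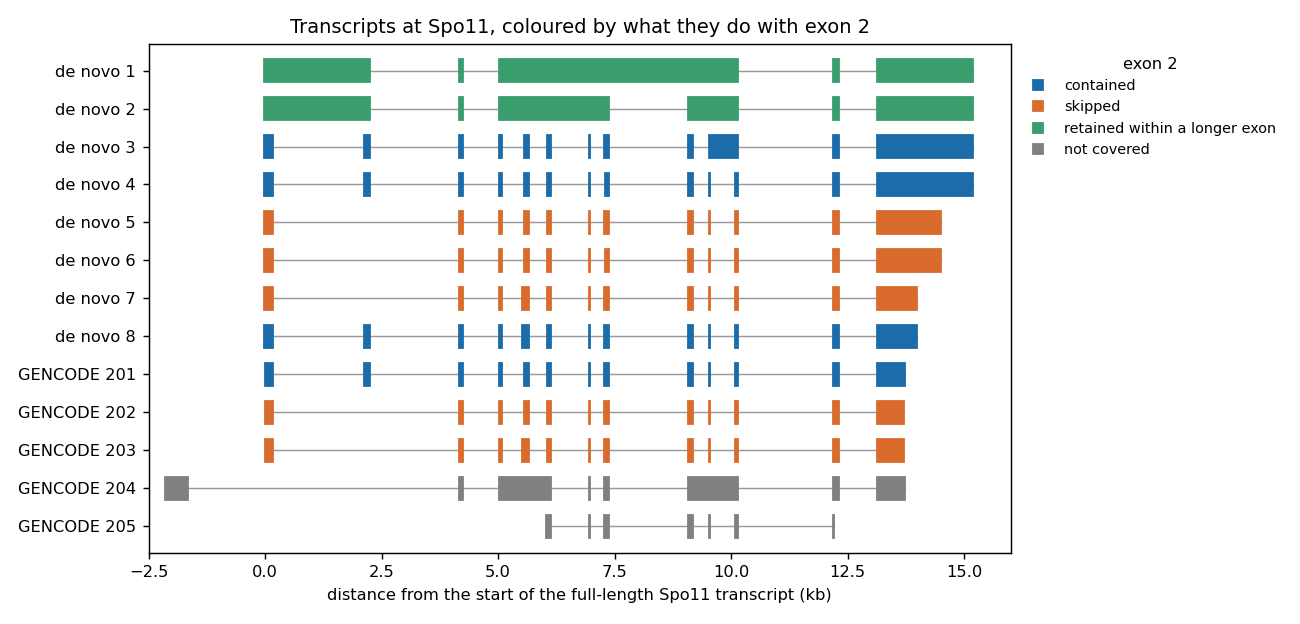
Exons (boxes) of 8 transcripts assembled de novo by the authors and of 5 GENCODE M21 transcripts at Spo11, by distance in kb from the start of the full-length transcript and coloured by their treatment of exon 2. Exon 2 was contained in 3 and skipped in 3 of the de novo transcripts, and the other 2 ran through it within a longer exon.

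Spo11 is known to make a longer form, SPO11β, which includes exon 2, and a shorter one, SPO11α, which skips it and is typical of later prophase. Exon 2 spans chr2:172981979-172982092 on the plus strand in GENCODE M21 (GRCm38). It has 114 bases, a multiple of 3, and lies inside the coding sequence of a transcript of 13 exons. The junctions that set the forms apart are printed here 5′ to 3′ with exon 2 in capitals and 15 bases of each neighbouring exon in lower case.
Spo11 with exon 2: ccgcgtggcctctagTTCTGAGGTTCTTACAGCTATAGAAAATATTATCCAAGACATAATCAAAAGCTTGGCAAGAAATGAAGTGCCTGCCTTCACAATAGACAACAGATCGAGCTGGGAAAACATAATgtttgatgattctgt
Spo11 without exon 2: ccgcgtggcctctaggtttgatgattctgt
Both forms were present in the annotation the authors assembled from these libraries. The gene table has 1 value for each gene, so the levels of the forms at each stage were not analysed here. The exon length behind the Spo11 value, 3921 bases, includes a GENCODE transcript of 3619 bases beside the full-length one of 1709 bases, and RPKM of Spo11 is per kilobase of that longer model in every library.

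Of the accessory genes, Rec114, Mei1 and Ankrd31 fell in PD, and Iho1 did not pass the test. Iho1 (NCBI Gene 434438, chr9:108403492-108431841, minus strand, Ccdc36 in GENCODE M21) encodes a protein that binds HORMAD1 and brings the break machinery to the axis. Iho1 measured 17.0, 11.2 and 18.4 RPKM in LZ, 12.2, 11.5 and 13.8 in PD, 2.37, 3.66 and 2.85 in RS, 0.183, 2.91 and 0.460 in EES, and 0.328, 0.359 and 0.568 in LES. The PD libraries lay within the LZ range, and every RS library lay below them. The log2 fold change in PD relative to LZ was -0.28 ± 0.69 (limma adjusted p = 0.734), and 0.17 under median centring. In RS relative to PD, Iho1 fell by 2.10 on the log2 scale (SE 0.69, adjusted p = 0.0236), a call that was lost without PD replicate 1, 2 or 3 and without RS replicate 1 or 3. The call held in a limma fit of only the 6 libraries compared (SE 0.18, adjusted p = 3.12e-05).

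The reading of Iho1 is limited by a neighbour on the other strand. A de novo locus on the plus strand (chr9:108347856-108413244), which holds exons of Usp4 and 1700102P08Rik, covered 86.0% of the exon bases of Iho1. It averaged 13.7 RPKM in LZ, 25.2 in PD, 19.7 in RS, 6.54 in EES and 5.43 in LES. The strandedness of the libraries is not given in the sources used here, so reads of the shared bases cannot be assigned to a strand and the part of this locus in the Iho1 values was not tested. The de novo locus on the strand of Iho1 averaged 8.78 ± 0.836 RPKM in PD, against 10.6 ± 2.54 RPKM in LZ (SD, n = 3 each).

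Rec114 (NCBI Gene 73673, chr9:58652856-58822706, minus strand) encodes a partner of MEI4 and ANKRD31. Rec114 measured 4.15, 3.83 and 2.52 RPKM in LZ, 0.605, 0.480 and 0.354 in PD, 0.987, 1.01 and 1.00 in RS, 0.121, 1.41 and 0.304 in EES, and 0.209, 0.177 and 0.495 in LES. PD libraries lay below both LZ and RS libraries, and the wide EES range came from replicate 2. Rec114 fell in PD relative to LZ (log2 fold change -2.84 ± 0.66, limma adjusted p = 0.00171). The log2 fold change in RS relative to PD was 1.08 ± 0.66 (adjusted p = 0.209), and it passed the test without EES replicate 2 (adjusted p = 0.0373). Here too a locus of the other strand, that of Nptn, covered 69.0% of the exon bases, and it averaged 0.0752 RPKM in PD, against 2.87 RPKM in LZ. A single-exon locus of 2523 bases on the plus strand (chr9:58741631-58744153), which lies inside the RefSeq interval of Rec114 and overlaps the start of its de novo transcripts, averaged 1.42 ± 0.238 RPKM in PD, against 0.127 ± 0.0845 RPKM in LZ (SD, n = 3 each). The de novo locus on the strand of Rec114 averaged 0.607 ± 0.164 RPKM in PD, against 3.54 ± 0.951 RPKM in LZ (SD, n = 3 each). The ratio of Iho1 to Rec114 RPKM was 20.3, 24.0 and 39.1 in PD libraries, against 4.11, 2.92 and 7.31 in LZ libraries. It was 2.40, 3.62 and 2.83 in the RS libraries and between 1.15 and 2.06 in the EES and LES libraries. The part of the loci of the other strand in this ratio was not tested.

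Mei4 (NCBI Gene 75033, chr9:81863670-82206007, plus strand), the partner of REC114 in the accessory complex, was the lowest member in every stage. Mei4 measured 1.08, 0.827 and 0.668 RPKM in LZ, 0, 0.00397 and 0.00177 in PD, 0, 0.00528 and 0.0110 in RS, 0.00536, 0.0300 and 0.00801 in EES, and 0.0192, 0.0150 and 0.0341 in LES. The 3 LZ libraries held 273 to 428 reads each, and no later library held more than 16. Summed over 3 libraries, Mei4 had 3 reads in PD, against 1046 reads in LZ. Per library total, the PD level was 0.230% of the LZ level (95% exact interval 0.0474% to 0.674%, for counting error only). The same share was 0.675% in RS, 1.65% in EES and 2.73% in LES (0.308% to 1.29%, 0.977% to 2.63% and 1.83% to 3.91%). Reads from PCR without molecular identifiers are not independent molecules, which these intervals do not cover.

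Ankrd31 (NCBI Gene 625662, chr13:96748289-96909794, plus strand) encodes a partner of REC114 that is needed for breaks in the region shared by X and Y. Ankrd31 measured 45.8, 35.4 and 36.9 RPKM in LZ, 17.9, 16.7 and 16.0 in PD, 11.9, 5.36 and 10.3 in RS, 7.72, 7.07 and 8.45 in EES, and 8.57, 7.51 and 10.2 in LES. The LZ, PD and RS libraries did not overlap, and those of the spermatid stages did. It was the only member above 1 RPKM in all 15 libraries, and its LES mean was 22.2% of its LZ mean. In PD relative to LZ the log2 fold change was -1.21 ± 0.27 (limma adjusted p = 0.00116), and it was -0.76 under median centring (adjusted p = 0.0812) and -0.93 under limma-voom, short of the fold asked for. The 5 de novo transcripts of the locus had up to 25 exons and covered 98.8% of the Ankrd31 exon bases, and the locus averaged 3.71 ± 0.572 RPKM in LES (SD, n = 3).

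Mei1 (NCBI Gene 74369, chr15:82070074-82126817, plus strand) encodes a protein needed for break formation. Mei1 measured 8.78, 6.19 and 9.26 RPKM in LZ, 1.38, 1.33 and 1.77 in PD, 2.06, 2.75 and 2.17 in RS, 0.713, 1.01 and 0.804 in EES, and 0.738, 0.777 and 0.767 in LES. The RS libraries lay above the PD libraries, and EES and LES overlapped. Mei1 fell in PD relative to LZ (log2 fold change -2.42 ± 0.23, limma adjusted p = 1.13e-06). In RS relative to PD its log2 fold change was 0.64 ± 0.23 (adjusted p = 0.0392), below the change of 1 asked for.

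At the axis, Hormad1 (NCBI Gene 67981, chr3:95559677-95587863, plus strand) encodes a HORMA-domain protein that recruits IHO1 and leaves chromosomes as they synapse. Hormad1 measured 176, 141 and 179 RPKM in LZ, 47.2, 43.1 and 32.7 in PD, 20.9, 10.7 and 12.7 in RS, 0.517, 2.49 and 1.61 in EES, and 2.58, 1.05 and 4.53 in LES. Each of the first 3 steps brought every library below those of the stage before it, and LES overlapped EES. Hormad1 fell in PD relative to LZ (log2 fold change -2.02 ± 0.56, limma adjusted p = 0.00553). In RS relative to PD it fell by 1.52 (SE 0.56, adjusted p = 0.0394), a call that was lost in 8 of the 15 fits that left out 1 library (LZ replicate 1 or 2, any PD library, RS replicate 2 or 3, or LES replicate 1). The call held in a limma fit of only the 6 libraries compared (SE 0.26, adjusted p = 0.00109). The de novo locus that holds Hormad1 ran on to position 95620294 and also held exons of Golph3l, so its values are not those of Hormad1 alone.

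**Figure D4:**
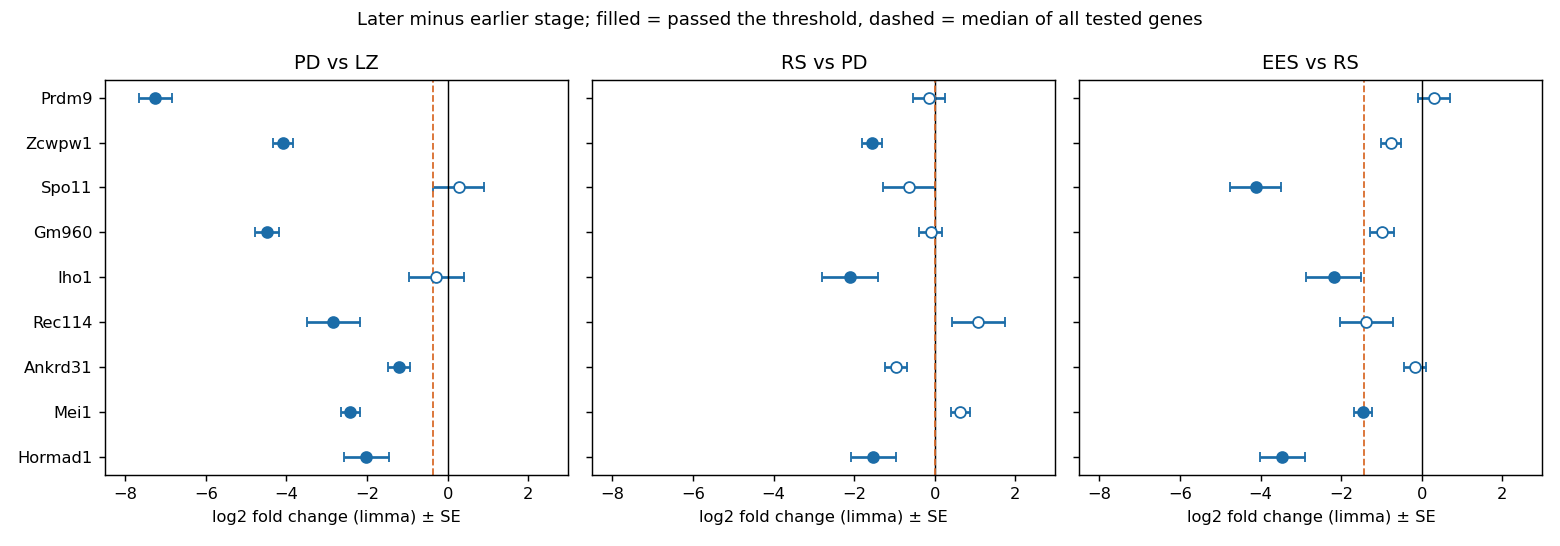
limma log2 fold changes (points, with SE bars) of the 9 tested genes for PD vs LZ, RS vs PD and EES vs RS, later minus earlier; filled points passed the threshold, and the dashed line is the median of all tested genes. From LZ to PD 7 of the 9 genes fell, beside 35.8% of all tested genes. The next step, to RS, had 3 falls, beside 15.2% of all tested genes. The step to EES had 4 falls, beside 54.9% of all tested genes, whose median was -1.42. Only 2 of these 4 falls remained under median centring, quantile normalization or limma-voom. Those scalings called falls for 3715, 4219 and 4379 of all tested genes.

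From PD to RS, Zcwpw1, Iho1 and Hormad1 fell, which made 3 of 9 tested genes, and none rose. Among all tested genes 15.2% fell and 23.4% rose at this step (38.6% in all). At an unadjusted p under 0.05 limma had 1 gene higher (Mei1) and 4 lower, and limma-voom called 0 that rose and 4 that fell. Among all tested genes limma-voom called 2812 that rose and 3275 that fell. Over all 10 genes the RS libraries lay wholly below the PD libraries for 5 (34.8% of tested genes) and wholly above for 2, Rec114 and Mei1 (38.1%). Ankrd31 had a log2 fold change of -0.96 ± 0.27 (limma adjusted p = 0.00925), just short of the change of 1, and passed under median centring (-1.20), quantile normalization (-1.12) and limma-voom (-1.27). Spo11 had 18.2 ± 1.73 RPKM in RS, against 28.3 ± 1.47 RPKM in PD, and its log2 fold change of -0.64 ± 0.64 did not pass (adjusted p = 0.46). That SE draws on the spread of all 15 libraries, EES included. In a limma fit of only the 6 libraries compared, the SE was 0.11 (adjusted p = 0.00136), with the change still short of 1. The number of falls was 1 without PD replicate 1, 2 or 3, and 5 under quantile normalization, where 3166 of all tested genes fell.

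From RS to EES, Spo11, Hormad1, Iho1 and Mei1 fell, or 4 of 9 tested genes, when 54.9% of all tested genes fell and 15.8% rose (70.8% in all). Spo11 had the largest change, with 0.327, 3.97 and 0.829 RPKM in EES, against 19.9, 16.4 and 18.2 RPKM in RS (log2 fold change -4.12 ± 0.64, limma adjusted p = 7.07e-05). Hormad1 fell by 3.46 (SE 0.56, adjusted p = 9.29e-05), Iho1 by 2.19 (SE 0.69, adjusted p = 0.0108, but 0.0512 without EES replicate 1) and Mei1 by 1.46 (SE 0.23, adjusted p = 9.00e-05). The Iho1 call was also lost in a limma fit of only the 6 libraries compared (SE 0.97, adjusted p = 0.0856). The EES libraries lay wholly below the RS libraries for 5 of the 10 genes, Zcwpw1, Spo11, Gm960, Mei1 and Hormad1 (57.2% of tested genes), and wholly above for 0 (19.1%). None of the 9 rose in limma, and none was higher at an unadjusted p under 0.05. The median of all tested genes moved by -1.42 on the log2 scale at this step, so a gene that kept its share of the RNA of most other genes also had a negative fold change. Relative to that median, Spo11 stood at -2.70, Hormad1 at -2.03, Iho1 at -0.76, Mei1 at -0.03, Ankrd31 at 1.26 and Prdm9 at 1.72.

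Other scalings therefore gave other calls for RS to EES. Median centring, quantile normalization and limma-voom kept the falls of Spo11 and Hormad1 and lost those of Iho1 and Mei1. Among all tested genes they called 3715, 4219 and 4379 falls and 4306, 3382 and 3687 rises. They made the log2 fold change of Prdm9 1.75, 1.03 and 1.51, past the threshold, although Prdm9 had 0.0922 ± 0.0550 RPKM in EES, against 0.0669 ± 0.0140 RPKM in RS (SD, n = 3 each). Ankrd31 likewise had 1.28 under median centring and 1.01 under limma-voom, both past the threshold. Among all tested genes the share of calls that rose was 22.3% in the deposited scale and 53.7% under median centring for this step, 41.6% and 53.0% for PD vs LZ, and 60.6% and 49.9% for RS vs PD.

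EES replicate 2 was the highest EES library for 7 of the 10 genes, all but Zcwpw1, Gm960 and Ankrd31. The same library had 680 RPKM of summed round spermatid markers, against 231 to 254 RPKM in RS libraries, and 46919 RPKM of summed elongating spermatid markers, against 106376 and 124014 RPKM in the other EES libraries. Its part in the EES levels was not tested beyond leaving it out. Without it the log2 fold change from RS to EES was -5.09 ± 0.39 for Spo11 and -3.28 ± 0.37 for Iho1, and Rec114 fell as well (-2.32 ± 0.45, limma adjusted p = 0.000336), which made 5 falls.

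From EES to LES, none of the 9 genes passed the test in limma, when 0.00754% of all tested genes rose and 0% fell. None was past an unadjusted p of 0.05 in either direction, and limma-voom called none. Libraries of the stages overlapped for all 10 genes, while 6.62% of tested genes had every LES library above the EES libraries and 1.54% had every one below. The log2 fold changes ran from -0.62 ± 0.69 for Iho1 to 0.85 ± 0.56 for Hormad1. Over all 5 stages the 9 genes differed in the limma F test, as did 97.2% of all tested genes. The adjusted p of this F test lay between 6.95e-10 (Zcwpw1) and 0.000797 (Rec114). Prdm9 and Gm960, which passed the filter only through LZ, had to differ here.

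The single libraries, which have no replicate, were set beside the stages without a test. Their column names begin with Erkek and those of the 15 stage libraries with Gill, and they were sorted with other dyes. Age or reporter therefore cannot be told apart from these differences. RS23 held 159.2 M reads, and Spo11 measured 12.5 RPKM, Iho1 5.52 RPKM and Ankrd31 15.1 RPKM there, against 16.4 to 19.9, 2.37 to 3.66 and 5.36 to 11.9 RPKM in the RS libraries. Iho1, Ankrd31, Prdm9, Zcwpw1 and Mei4 lay above the RS range in RS23, Hormad1 lay within it, and Spo11, Gm960, Rec114 and Mei1 lay below it. PrmES held 149.2 M reads and had Ankrd31 at 14.1 RPKM, against 7.07 to 8.45 RPKM in EES and 7.51 to 10.2 RPKM in LES. The other 9 genes were between 0.0211 RPKM (Mei4) and 2.40 RPKM (Hormad1) in PrmES.

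The genes whose log2 values were most alike to each of 9 members, by Pearson correlation over 15 libraries among 11678 protein-coding genes, are given as a description. Closest to Prdm9 were Carmil3 (0.995) and Bhmg1 (0.993), and the mean of Bhmg1 was 0.0937 RPKM in PD, against 20.9 RPKM in LZ. Closest to Spo11 were Eftud2 (0.998) and Pcna (0.997). Hormad1 was closest to Gtf2h3 (0.996) and Nup85, Iho1 to Kdm5b (0.992) and Arhgef11, and Ankrd31 to Setd2 (0.984) and Stag1. Gm960 was closest to Phf20 and Vac14, Mei4 to H1f3 and Prss50, Rec114 to 2810006K23Rik and Heatr5a, and Mei1 to Crocc and Zkscan2. Between members the correlation ran from 0.24 for Spo11 with Mei4 to 0.98 for Prdm9 with Mei4. Spo11 was most like Iho1 (0.94) and Zcwpw1 most like Gm960 (0.97). All of these points share the library totals and the 5 stages.

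Genes that act around the break were read from lists of partners, chosen like the members with earlier results known. Among all tested genes 35.8% fell and 25.5% rose from LZ to PD. From LZ to PD, 6 of 10 genes of break control and end processing fell and 0 rose in limma (median -1.03, against -0.36 over all tested genes), and 0 were higher at an unadjusted p under 0.05 in limma. In limma-voom 4 fell and 0 rose, with 2 higher at an unadjusted p under 0.05. Of the genes that fell in limma, Atm, the kinase that limits break number, averaged 0.347 ± 0.0752 RPKM in PD, against 12.8 ± 2.61 RPKM in LZ (SD, n = 3 each), with a log2 fold change of -5.17. Brca1 (-4.20), which acts in repair, and Trip13 (-2.33), which removes HORMA proteins from the axis, fell as well. Of the strand exchange genes 9 of 14 fell and 2 rose (median -2.20). Dmc1, the recombinase of meiosis, averaged 0.115 ± 0.0149 RPKM in PD, against 61.6 ± 14.4 RPKM in LZ, Rad51ap2 changed by -8.89 and Tex15 by -6.22. Psmc3ip, a DMC1 cofactor also called Hop2, rose by 1.66, to 80.9 ± 6.28 RPKM in PD, against 27.0 ± 11.4 RPKM in LZ. Of the axis and cohesin genes 5 of 7 fell and 0 rose (median -2.03), with 0 higher at an unadjusted p under 0.05 in limma. For these axis genes limma-voom had 4 that fell and 0 that rose, with 1 higher at an unadjusted p under 0.05. The cohesin subunit Rad21l changed by -8.80, Hormad2, the relative of Hormad1, by -3.15 and the cohesin subunit Rec8 by -2.26. Of 5 partners of PRDM9, Hells (-3.58), which opens chromatin with PRDM9, and Cdyl (-3.38) fell, and the histone methyltransferase Ehmt2 rose by 1.86 (median -0.40). Under median centring 3 break control genes fell and 1 rose, and 4 axis genes fell and 1 rose. Of all 13260 tested genes 3946 fell and 4443 rose under that scaling. Quantile normalization gave 4 PRDM9 partners that fell and 0 strand exchange genes that rose, when 4205 of all tested genes fell and 4175 rose.

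From PD to RS, where 15.2% of all tested genes fell and 23.4% rose, 4 of 10 break control genes fell and 1 rose. Of the strand exchange genes 2 of 14 fell and 2 rose, and of the axis genes 2 of 7 fell and 1 rose. Of the PRDM9 partners 0 of 5 fell and 1 rose. At an unadjusted p under 0.05, 1 of these partners was lower in limma, and limma-voom called 1 that fell. From RS to EES 54.9% of all tested genes fell and 15.8% rose. The falls in the same order of lists were 8 of 10, 8 of 14, 4 of 7 and 3 of 5. The rises were 0, 2, 0 and 1. Median centring gave 7 strand exchange genes that fell from PD to RS, and 4, 3, 1 and 2 falls from RS to EES in that order of lists. Under that scaling 2912 of all 13260 tested genes fell from PD to RS, and 3715 from RS to EES. From EES to LES no gene of the lists was called in limma or limma-voom, and in limma 1 break control gene was higher at an unadjusted p under 0.05. In limma-voom 2 break control genes and 1 axis gene were higher at an unadjusted p under 0.05.

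RefSeq promoter windows (GRCm38.p6, 250 bases before the start site and 50 after it) were found for 9 of the 10 genes, 12 windows in all, and not for Spo11. They were searched on both strands for letters of motifs linked to meiotic entry and the cell cycle. CNCCTCAG, of the STRA8/MEIOSIN type, was in 1 of 12 windows (Prdm9) and in 7.94% of all 32851 windows. GCGGGAA, of the E2F type, was in 4 of 12 windows, of 3 genes (Hormad1, Rec114 and Prdm9), and in 4.6% of all. CACGTG, the E-box, was in 3 of 12 windows, of 2 genes (Hormad1 and Rec114), and in 7.15% of all. CAACTG, of the MYB type, was in 2 of 12 windows, of 1 gene (Zcwpw1), and in 13.7% of all. The Hormad1 windows nearly coincide, with starts at 95559427 and 95559429. Windows with GCGGGAA had 67.3% GC at Hormad1, 61.7% at Prdm9 and 47.7% at Rec114, against a median of 52.7% over all windows. A match is a description of letters and no evidence of binding. Windows of 3 genes that fell from LZ to PD and hold a match are printed up to 30 bases after the start site, on the strand of the gene, with matched letters in capitals.
Prdm9, chr17:15564325-15564604, minus strand: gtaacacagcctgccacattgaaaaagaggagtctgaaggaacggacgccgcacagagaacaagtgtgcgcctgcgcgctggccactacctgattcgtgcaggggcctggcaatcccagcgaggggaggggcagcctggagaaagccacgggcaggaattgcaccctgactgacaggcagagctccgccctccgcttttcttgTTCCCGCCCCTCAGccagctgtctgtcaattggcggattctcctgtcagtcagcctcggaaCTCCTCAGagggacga
Zcwpw1, chr5:137787552-137787831, plus strand: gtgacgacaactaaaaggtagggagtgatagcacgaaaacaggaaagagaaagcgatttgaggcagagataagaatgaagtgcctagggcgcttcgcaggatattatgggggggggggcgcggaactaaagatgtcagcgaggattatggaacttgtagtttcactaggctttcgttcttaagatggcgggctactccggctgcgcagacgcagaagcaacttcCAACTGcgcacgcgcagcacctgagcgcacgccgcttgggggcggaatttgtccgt
Hormad1, chr3:95559427-95559706, plus strand: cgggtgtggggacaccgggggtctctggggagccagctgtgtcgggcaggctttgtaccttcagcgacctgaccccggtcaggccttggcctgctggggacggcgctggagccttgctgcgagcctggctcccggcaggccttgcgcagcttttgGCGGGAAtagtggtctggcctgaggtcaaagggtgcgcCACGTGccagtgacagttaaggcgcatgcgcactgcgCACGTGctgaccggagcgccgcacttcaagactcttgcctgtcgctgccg
With the start site as position 0, the Prdm9 window held CNCCTCAG at -41 and 14 and GCGGGAA on the other strand at -47, which shares 1 base with the first of them. The Hormad1 window held GCGGGAA at -95 and CACGTG at -57 and -20, and the Zcwpw1 window held CAACTG at -26. In Rec114, CACGTG stood at -19 and GCGGGAA at 26. The windows of Gm960, Iho1, Mei4, Ankrd31 and Mei1 held none of these letters. The Mei1 window (chr15:82082226-82082525) lies inside the gene, whose RefSeq interval starts at 82070074. The Gm960 window (chr19:4698619-4698918) lies at the RefSeq start, while the de novo transcripts of this minus-strand gene reach only to 4666412. Whether these windows are the promoters used in these cells was not tested.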

How the data were processed

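The authors deposited a gene table, a second table for genes assembled de novo and a transcript annotation for 17 RNA-seq libraries of sorted mouse testis cells. Reads were handled with Trim Galore and STAR on GRCm38/mm10, per the submitters' processing notes, and transcripts were assembled with StringTie 1.3.4d, per the file headers; for other settings, strandedness and poly(A) selection the sources used here give nothing. The deposited log2 values are log2(100 × RPKM + 1), a pseudocount of 0.01 RPKM, and the annotation holds coordinates (unit other), as deposited by the authors. This scale was checked on the values: with exon lengths, 100% of de novo values fell on whole reads within 0.001 read in all libraries, which also gave library totals of 90.6 to 159.2 M reads. Reads over the de novo genes came to between 54.2% (LZ replicate 2) and 107.8% (EES replicate 1) of these totals in the stage libraries. Shares of the totals may therefore not be strict fractions of the reads. No exon length was recovered for 1 gene. Gene symbols, positions and promoters came from RefSeq (GRCm38.p6), where 24570 of 24594 gene IDs matched, and exons from GENCODE M21. Of the 10 genes, 8 had the exon length of the GENCODE union; Zcwpw1 and Gm960 did not.

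All genes at 1 RPKM or more in at least 3 of the 15 stage libraries (13260) entered 1 fit in limma 3.58.1 (R 4.3.3) with eBayes and its trend, on the deposited log2 values. Neighbouring stages were compared, later minus earlier, and all 5 stages by an F test. Calls needed an adjusted p (Benjamini-Hochberg, all tested genes) under 0.05 and a log2 fold change of 1 or more in size. Fold changes are on the scale of log2(RPKM + 0.01) and understate changes of low genes. Alternatives were a pseudocount of 1 RPKM, no filter, median centring, quantile normalization, limma-voom with TMM factors on the recovered reads, only the 6 libraries compared, a block for replicate number, and leaving out libraries. The text names all 10 genes, 2 likenesses for each (those of Zcwpw1 are not reported here), and for each pathway list the called genes with the largest changes from LZ to PD, up to 3 in the direction of most called genes and 1 in the other. The genes, lists and tests were chosen with earlier results of these data known. Isoform levels were not analysed here. Python 3.11.15, pandas 2.3.3, scipy 1.17.1 and matplotlib 3.10.9 were used.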

Additional observations from a re-analysis of the deposited data

Results flagged for a closer look

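Transcripts assembled de novo on the strand opposite to a member of the break machinery were looked at as signal in the de novo table, which no comparison here uses. There were 7 such loci at 6 of the 10 genes with a stage mean of at least 1 RPKM; all values are from the deposited de novo table and none was tested. At Iho1 the locus of Usp4 and 1700102P08Rik was highest in PD, at 25.2 RPKM. At Rec114 the locus of Nptn was highest in LZ, at 2.87 RPKM, and the single-exon locus at the start of its de novo transcripts was highest in PD, at 1.42 RPKM. At Hormad1 a locus of 575 exon bases (chr3:95576438-95588836) reached 18.1 RPKM in LZ and shared 2.08% of the Hormad1 exon bases. At Gm960 a single-exon locus (chr19:4625665-4630278) reached 2.19 RPKM in LZ and shared 16.1% of the Gm960 exon bases. At Spo11 a locus of 2 exons at the end of the gene (chr2:172993481-173000136) was highest in RS, at 1.50 RPKM. At Ankrd31 a single-exon locus of 5000 bases inside an intron (chr13:96839535-96844534) was highest in LZ, at 1.10 RPKM, and shared 0% of the exon bases. Since strandedness is not given in the sources used here, reads of shared bases cannot be told apart by strand.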

How the results depend on the processing

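From LZ to PD the count of 7 falls was 7 in every fit without 1 library, 6 under median centring and limma-voom and 8 with no filter. Falls among all tested genes were 3946 under median centring and 4260 under limma-voom at this step. From PD to RS the members that rose were 1 with only the 6 libraries compared and 1 without both LZ replicate 3 and EES replicate 2, and 0 to 1 over the fits without 1 library (1 without EES replicate 2, Rec114). The members that fell were 5 under quantile normalization, where 3166 of all tested genes fell, and 1 to 3 over the fits without 1 library. From RS to EES the members that rose were 2 under median centring, 1 under quantile normalization and 2 under limma-voom. Those that fell were 2 under each of these, when 3715, 4219 and 4379 of all tested genes fell. The falls were 3 with only the 6 libraries compared and 3 with a pseudocount of 1 RPKM, and without 1 library they were 4 to 5. All 9 tested genes differed over the 5 stages in every fit, among them Prdm9 and Gm960, which passed the filter only through LZ.

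Signs turned mainly in changes that had not passed the test. From LZ to PD, Spo11 had -0.69 under quantile normalization, and Iho1 had 0.17 under median centring and 0.0036 under limma-voom. From RS to EES, median centring, quantile normalization and limma-voom gave 0.69, 0.74 and 0.33 for Zcwpw1, 0.46, 0.38 and 0.024 for Gm960, and 1.28, 0.83 and 1.01 for Ankrd31. Median centring and quantile normalization gave 0.067 and 0.091 for Rec114, and quantile normalization gave 0.058 for Mei1, whose fall had been called. Without both LZ replicate 3 and EES replicate 2, Prdm9 had -0.11 from RS to EES, and from EES to LES Gm960 had -0.02, Iho1 0.47, Rec114 0.44 and Mei1 0.0062. From EES to LES, Spo11 had -0.10 with a pseudocount of 1 RPKM and Gm960 had -0.43 under quantile normalization. Over the fits without 1 library, Prdm9 ran from -0.38 to 0.034 (PD to RS) and from -0.11 to 0.52 (RS to EES), and Ankrd31 from -0.51 to 0.058 (RS to EES). From EES to LES the same fits gave -0.73 to 1.05 for Spo11, -0.10 to 0.41 for Gm960, -1.49 to 0.47 for Iho1, -1.28 to 0.44 for Rec114 and -0.24 to 0.0062 for Mei1. The cause of these changes was not tested.

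With replicate number as a block, 35 of 36 fold changes of the members kept their side of the threshold and the falls from PD to RS were 2 instead of 3 (Hormad1, adjusted p = 0.0574), with the other counts of members as before. The labels do not say whether libraries of the same number belong together. Deviations from the stage means correlated by -0.252 to 0.242 over 30 pairs of the same number. Over 60 pairs of different numbers they correlated by -0.288 to 0.314. With 3 libraries a stage these correlations cannot decide whether libraries were paired. Values below about 0.1 RPKM rest on few reads, and for Mei4 on 0 to 16 reads a library after LZ.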
